A study of Mus musculus with 24 samples.

Results

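The 10 genes described here encode the cathepsins Ctsa, Ctsb, Ctsc, Ctsd, Ctsf, Ctsh, Ctsk, Ctsl, Ctss and Ctsz, and were taken by symbol from 4 comparison tables made by the authors. All 10 were found among the 43626 genes of each fibroblast table, 6 of the 10 in the podocyte table with Adriamycin, and 0 of the 10 in the podocyte table with vehicle. Poly(A) RNA was sequenced from mouse cells depleted of MOF, the histone H4 acetyltransferase encoded by Kat8, and from their controls, with and without Adriamycin (doxorubicin), an anthracycline that poisons topoisomerase II. The 8 groups held 3 samples each. Mouse embryonic fibroblasts (MEFs) at passage 2 were Mof knockout with Adriamycin, Mof knockout with vehicle, wild type with Adriamycin or wild type with vehicle. MPC5 cells, a single conditionally immortalised mouse podocyte line, were differentiated (passage 20) and were Mof knockdown with Adriamycin, Mof knockdown with vehicle, scramble control with Adriamycin or scramble control with vehicle. Exposure to Adriamycin lasted 24 h, with 0.1 µg/ml in MEF cultures and a higher concentration, 0.25 µg/ml, in podocytes; the vehicle was DMSO. How the knockout was induced, which sequence the knockdown targeted, and whether the 3 samples of a group were separate cultures are details not given in the sources used here. All p-values therefore reflect how far these samples spread, and part of that may be technical.

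Cathepsins are proteases of the lysosome and late endosome. They are made as inactive proenzymes, tagged in the Golgi with mannose 6-phosphate, carried to the acidic compartment by mannose 6-phosphate receptors, and activated there by removal of the propeptide; cystatins and some serpins inhibit those that leak out. Cathepsin D is an aspartic protease and cathepsin A a serine carboxypeptidase that also protects neuraminidase and beta-galactosidase in a complex, while the other 8 are papain-type cysteine proteases. Many lysosomal genes, cathepsins among them, are targets of the transcription factor TFEB and its relatives. In podocytes, cytosolic cathepsin L is known for cleaving synaptopodin, dynamin and CD2AP during injury of the filtration barrier.

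Each table sets Mof-depleted against control samples of 1 cell type and drug condition. It gives, per gene, a mean normalized count over the 6 samples, a log2 fold change with its standard error (SE), and a p-value with its adjusted p; values per sample and depth per library are unknown. A positive fold change means more transcript in Mof-depleted cells. Kat8 itself stood at -1.71 ± 0.16 (SE) in MEFs with Adriamycin and -1.96 ± 0.20 with vehicle, and at -1.24 ± 0.14 in podocytes with Adriamycin and -1.49 ± 0.15 with vehicle, on the log2 scale of the authors' deposited tables. The direction of the tables was read from this sign, so Kat8 does not test the labels. Of 12 fibroblast markers, all 12 were tested in both MEF tables. With Adriamycin 2 rose and 3 fell, where 16.6% of all tested genes rose and 16.1% fell. With vehicle 3 rose and 2 fell, where 17.8% rose and 19.6% fell. Their mean counts, split between groups by the deposited fold changes, summed to 521955 in knockout and 527168 in wild-type MEFs with Adriamycin. Fn1, Col1a1 and Vim, with mean counts of 188626, 116732 and 106592, weigh most in these implied sums. Such implied group means are approximate, because the deposited fold changes look shrunk towards 0, most for genes with few reads. The podocyte tables hold only genes with an adjusted p below 0.05. Nephrin (Nphs1) and Wt1 had no row in them. With Adriamycin 7 of 12 podocyte markers had a row, 5 higher and 2 lower in knockdown cells, where 55.7% of the 17184 tested genes were called. That count is therefore one of changed markers, and the podocyte identity of MPC5 cells could be checked only in part.

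In MEFs, most cathepsin transcripts were higher in Mof knockout than in wild-type cells. Under Adriamycin, Ctsl, Ctsb, Ctsa, Ctsd, Ctsh and Ctsf rose and Ctsc fell: 6 of 10 members were higher and 1 lower at an adjusted p below 0.05, where 16.6% of the 14139 tested genes were higher, 16.1% lower and 32.7% called in either direction. Under vehicle, Ctsd, Ctsl, Ctsa, Ctsb, Ctss and Ctsf rose and Ctsc fell: again 6 of 10 were higher and 1 lower, against 17.8% higher, 19.6% lower and 37.5% called of 15605 tested genes. The median log2 fold change of the 10 members was 0.45 with Adriamycin and 0.88 with vehicle, whereas the median of all tested genes was -0.019 and 0.0080 in the authors' deposited tables of these conditions. All 10 members passed the authors' filter on low counts in both MEF tables.

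**Figure D1:**
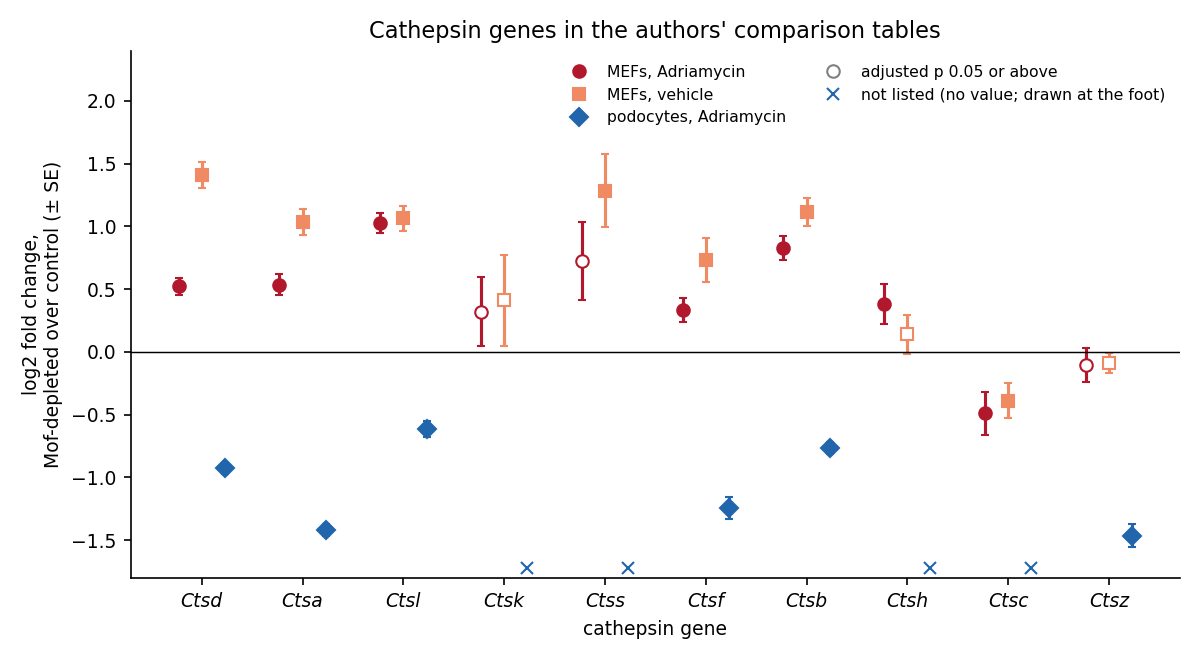
Log2 fold change (Mof-depleted over control, y axis, ± SE of the authors) of each cathepsin gene (x axis) in MEFs with Adriamycin, MEFs with vehicle and podocytes with Adriamycin; open symbols had an adjusted p of 0.05 or above, and crosses at the foot mark genes with no row in the podocyte table. Most MEF values lie above 0, while all 6 podocyte values lie below it, between -1.47 and -0.62.

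Cathepsin D, the main aspartic protease of the lysosome, had the highest count per kb of exon of the members in each of the 3 tables that list it. The mean count of Ctsd (ENSMUSG00000007891, chromosome 7, 142375911 to 142388038, minus strand, GRCm38), split by the fold change of the authors' deposited table, came to 78673 in knockout MEFs and 54709.6 in wild-type MEFs with Adriamycin. With vehicle it came to 35772 in knockout MEFs and 13438 in wild-type MEFs. These are levels of group means that the deposited fold changes imply; knockout cells were higher in both drug conditions. The log2 fold change of Ctsd was 0.52 ± 0.067 (SE, adjusted p 9.29e-13) with Adriamycin and 1.41 ± 0.10 (adjusted p 6.84e-39) with vehicle in the authors' deposited tables, and with vehicle Ctsd had rank 31 by p among all tested genes. In GENCODE M21, 808 of the 2351 exon bases of Ctsd are shared with the same-strand gene model Gm49369, which has no row in the tables.

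Cathepsin A, the carboxypeptidase that stabilises neuraminidase 1 and beta-galactosidase, also rose in both conditions. The implied mean count of Ctsa (ENSMUSG00000017760, chromosome 2, 164832873 to 164841032, plus strand) was 8975 in knockout MEFs and 6186 in wild-type MEFs with Adriamycin, and 6684 in knockout MEFs and 3266 in wild-type MEFs with vehicle. Its log2 fold change was 0.54 ± 0.081 (SE, adjusted p 1.87e-09) with Adriamycin and 1.03 ± 0.10 (adjusted p 5.52e-22) with vehicle in the authors' deposited tables. Pltp, a phospholipid transfer protein gene, shares 495 of the 4715 exon bases of Ctsa on the opposite strand, and Neurl2 shares 324. In the authors' deposited table with Adriamycin, Pltp stood at 0.76 ± 0.13 and Neurl2 at 0.98 ± 0.15, and with vehicle Pltp stood at 2.82 ± 0.18 and Neurl2 at 0.91 ± 0.22. Use of strand in the counting is a detail not given in the sources used here, and the part of these neighbours in the Ctsa value was not tested.

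Cathepsin L, a strong cysteine endopeptidase, rose in both conditions. The implied mean count of Ctsl (ENSMUSG00000021477, chromosome 13, 64359337 to 64370890, minus strand) was 15809 in knockout MEFs and 7741 in wild-type MEFs with Adriamycin, and 12552 in knockout MEFs and 5999 in wild-type MEFs with vehicle. Ctsl stood at 1.03 ± 0.080 (SE, 2.04-fold, adjusted p 3.92e-34) with Adriamycin and 1.07 ± 0.098 (2.09-fold, adjusted p 1.08e-25) with vehicle in the authors' deposited tables. With Adriamycin it had rank 5 by p among the 14139 tested genes. GENCODE M21 also places the antisense gene Gm47123 and the processed pseudogene Gm49230 over Ctsl, sharing 1742 and 395 of its 6489 exon bases; neither has a row in the tables. Cathepsin B, which cuts both within proteins and as a dipeptidyl carboxypeptidase, came next after cathepsin D in count per kb of exon in MEFs. The implied mean count of Ctsb (ENSMUSG00000021939, chromosome 14, 63122462 to 63145923, plus strand) was 33443 in knockout MEFs and 18843 in wild-type MEFs with Adriamycin, and 20522 in knockout MEFs and 9474 in wild-type MEFs with vehicle. Its log2 fold change was 0.83 ± 0.097 (SE, adjusted p 2.58e-15) with Adriamycin and 1.12 ± 0.11 (adjusted p 3.16e-21) with vehicle in the authors' deposited tables. Fdft1, the squalene synthase gene, shares 774 of the 6051 exon bases of Ctsb on the opposite strand and stood at 0.57 ± 0.18 with Adriamycin and 0.47 ± 0.089 with vehicle in the authors' deposited tables; its part in the Ctsb value was not tested.

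Cathepsin F, a less studied cysteine endopeptidase, rose in both conditions too. The implied mean count of Ctsf (ENSMUSG00000083282, chromosome 19, 4855130 to 4860918, plus strand) was 2374 in knockout MEFs and 1883 in wild-type MEFs with Adriamycin, and 283 in knockout MEFs and 171 in wild-type MEFs with vehicle. Its log2 fold change was 0.33 ± 0.094 (SE, adjusted p 0.00228) with Adriamycin and 0.73 ± 0.18 (adjusted p 2.39e-04) with vehicle in the authors' deposited tables. The implied count of Ctsf in wild-type MEFs was 11.0-fold higher with Adriamycin than with vehicle. These are separate tables whose common scale is unknown, so that ratio is a description and was not tested.

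Since Ctsd, Ctsa, Ctsf and Ctsl moved together in MEFs, the 250 bases before their RefSeq starts (GRCm38.p6) are printed 5′ to 3′ on the gene's own strand, with the E-box CACGTG, the core of the element that TFEB binds, in capitals. Ctss is included for the core of the interferon-stimulated response element, GAAA, any 2 bases and GAAA, in capitals. RefSeq windows were matched for 8 of the 10 members (9 windows, 2 of them for Ctsa), leaving out Ctsb and Ctsh. Of the Ctsa windows, the one directly before the annotated gene start held no E-box, and the one before the second RefSeq start, within the gene, is printed.
Ctsd, chr7:142387828-142388077, minus strand: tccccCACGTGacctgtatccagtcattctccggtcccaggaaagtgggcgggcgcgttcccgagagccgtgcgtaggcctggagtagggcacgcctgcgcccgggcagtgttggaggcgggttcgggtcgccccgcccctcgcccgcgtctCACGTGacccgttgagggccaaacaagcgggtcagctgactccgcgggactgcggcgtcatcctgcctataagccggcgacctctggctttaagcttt
Ctsa, chr2:164833523-164833772, plus strand: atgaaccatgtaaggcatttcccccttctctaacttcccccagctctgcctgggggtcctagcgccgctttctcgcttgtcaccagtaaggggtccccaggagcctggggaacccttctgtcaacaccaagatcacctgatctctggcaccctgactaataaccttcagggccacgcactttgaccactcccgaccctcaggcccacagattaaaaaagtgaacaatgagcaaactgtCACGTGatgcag
Ctsf, chr19:4854915-4855164, plus strand: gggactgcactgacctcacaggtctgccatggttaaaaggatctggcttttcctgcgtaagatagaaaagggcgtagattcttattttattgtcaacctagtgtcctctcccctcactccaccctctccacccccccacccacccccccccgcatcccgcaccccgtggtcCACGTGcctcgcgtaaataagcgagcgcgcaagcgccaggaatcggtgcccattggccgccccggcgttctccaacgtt
Ctsl, chr13:64370521-64370770, minus strand: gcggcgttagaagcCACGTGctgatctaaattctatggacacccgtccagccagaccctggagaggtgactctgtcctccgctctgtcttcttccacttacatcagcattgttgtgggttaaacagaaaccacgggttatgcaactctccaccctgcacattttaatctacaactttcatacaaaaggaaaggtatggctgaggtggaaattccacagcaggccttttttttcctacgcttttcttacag
Ctss, chr3:95526536-95526785, plus strand: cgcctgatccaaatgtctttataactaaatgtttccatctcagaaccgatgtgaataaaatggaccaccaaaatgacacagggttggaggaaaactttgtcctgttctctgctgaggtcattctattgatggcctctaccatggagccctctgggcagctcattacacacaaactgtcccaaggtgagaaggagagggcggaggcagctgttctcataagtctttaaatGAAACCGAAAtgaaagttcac
CACGTG reads the same on both strands, the other motifs were searched on both strands, and no E-box overlapped another motif in the printed windows. The first base of the E-box lay 12 bases before the start of Ctsa, 79 before Ctsf and 236 before Ctsl, and Ctsd had 2, at 245 and 98 bases. These distances count from the RefSeq starts. By the GENCODE positions given for each gene, the Ctsa and Ctsl windows lie inside the gene, downstream of its outermost annotated start, as does the Ctsd E-box nearer to the RefSeq start, while the other Ctsd E-box and that of Ctsf lie outside. CACGTG was found in 4 of 9 cathepsin windows and in 6.02% of all 32851 windows of that length, as well as in 13.2% of 38 windows of other lysosomal hydrolase genes and 18.5% of 27 of lysosomal membrane and proton pump genes. The interferon element was found in 1 of 9 cathepsin windows, that of Ctss, and in 2.98% of all windows. The GC box GGGCGG was found in 5 of 9 cathepsin windows, 32.7% of all windows, 52.6% of hydrolase and 66.7% of membrane gene windows. These shares were not tested against each other. A match describes letters in the window and does not show that a factor was bound.

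The 2 remaining endopeptidases are best known from particular cells, cathepsin S from antigen-presenting cells, where it cleaves the invariant chain, and cathepsin K from osteoclasts, where it degrades collagen. Ctss (ENSMUSG00000038642, chromosome 3, 95526786 to 95556403, plus strand) had an implied mean count of 354 in knockout MEFs and 214 in wild-type MEFs with Adriamycin, and 269 in knockout MEFs and 110.4 in wild-type MEFs with vehicle. Its log2 fold change was 0.73 ± 0.31 (SE) with Adriamycin, which did not pass the threshold (adjusted p 0.0564), and 1.29 ± 0.29 (adjusted p 6.38e-05) with vehicle in the authors' deposited tables. Ctss is also a gene of macrophages, whose markers had counts in these samples: none of 20 macrophage and leukocyte markers had a mean count below 1, and Lyz2 had a mean count of 2624 with Adriamycin and 1924 with vehicle in the authors' deposited tables. The summed implied count of the list was 7649 in knockout MEFs and 5923 in wild-type MEFs with Adriamycin, where 0 of 18 tested markers rose and 1 fell. With vehicle it was 6154 in knockout MEFs and 3424 in wild-type MEFs, where 8 of 19 rose and 0 fell. Lyz2, the marker with the highest mean count, weighs most in these sums. It stood at 0.73 ± 0.39 (SE) with Adriamycin, where it did not pass, and at 1.29 ± 0.36 with vehicle, where it passed. The 1 marker that fell with Adriamycin was Cx3cr1, at -1.39 ± 0.41. Over all tested genes, 16.6% rose and 16.1% fell with Adriamycin, and 17.8% rose and 19.6% fell with vehicle. Interferon induces Ctss, and 17 of 20 interferon-stimulated genes rose with Adriamycin (median 1.35) and 20 of 20 with vehicle (median 3.50). The part of either list in the Ctss value was not tested, and in bulk RNA more cells of a type and more RNA per cell cannot be told apart. Ctsk (ENSMUSG00000028111, chromosome 3, 95499256 to 95509362, plus strand) had an implied mean count of 435 in knockout MEFs and 348 in wild-type MEFs with Adriamycin, and 638 in knockout MEFs and 479.7 in wild-type MEFs with vehicle. At 0.32 ± 0.27 (SE, adjusted p 0.390) with Adriamycin and 0.41 ± 0.36 (adjusted p 0.399) with vehicle in the authors' deposited tables, Ctsk passed the threshold in neither, and its SE was among the widest of the members.

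Of the exopeptidases other than cathepsins A and B, Ctsc fell, Ctsh passed in 1 table and Ctsz in neither. Cathepsin C, a dipeptidyl peptidase that activates the serine proteases of leukocyte granules, was the 1 member that fell in MEFs. The implied mean count of Ctsc (ENSMUSG00000030560, chromosome 7, 88278085 to 88310888, plus strand) was 438 in knockout MEFs and 616 in wild-type MEFs with Adriamycin, and 615 in knockout MEFs and 804 in wild-type MEFs with vehicle. Ctsc stood at -0.49 ± 0.17 (SE, adjusted p 0.0161) with Adriamycin and -0.39 ± 0.14 (adjusted p 0.0207) with vehicle in the authors' deposited tables, values past 0.05 but not past 0.01. Cathepsin H, an aminopeptidase, had an implied mean count of 712 in knockout MEFs and 546 in wild-type MEFs with Adriamycin, and 415 in knockout MEFs and 377 in wild-type MEFs with vehicle. Ctsh (ENSMUSG00000032359, chromosome 9, 90054152 to 90076089, plus strand) was at 0.38 ± 0.16 (SE, adjusted p 0.0460) with Adriamycin and 0.14 ± 0.15 (adjusted p 0.520) with vehicle in the authors' deposited tables, so it lay just inside the threshold in the first. Without the authors' filter on low counts the adjusted p of Ctsh with Adriamycin was 0.0876, which ends that call. Cathepsin Z is a carboxypeptidase also called cathepsin X. The implied mean count of Ctsz (ENSMUSG00000016256, chromosome 2, 174427493 to 174439039, minus strand) was 2537 in knockout MEFs and 2730.2 in wild-type MEFs with Adriamycin, and 2244 in knockout MEFs and 2389 in wild-type MEFs with vehicle. Its log2 fold change was -0.11 ± 0.13 (SE, 95% interval -0.37 to 0.16) with Adriamycin and -0.090 ± 0.081 (-0.25 to 0.069) with vehicle in the authors' deposited tables, with adjusted p of 0.581 and 0.412. Nelfcd, which shares 10 exon bases with Ctsz on the opposite strand, fell in both (-0.50 ± 0.14 with Adriamycin, -0.51 ± 0.096 with vehicle).

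Per kb of exon, the members spanned more than a 100-fold range in MEFs. The mean normalized count per kb of exon in the authors' deposited table with Adriamycin ran from 28367 for Ctsd and 4320.5 for Ctsb down to 90.7 for Ctsc. With vehicle it ran from 10466 for Ctsd and 2479 for Ctsb down to 45.0 for Ctsf. Ctsz, Ctsl and Ctsa lay close together behind Ctsb in both, at 1828, 1815 and 1608 with Adriamycin and 1608, 1429 and 1055 with vehicle. With no value per sample the spread behind that order is unknown. Exon length here is the union of all annotated exons, 1441 bases for Ctsz and 6489 for Ctsl, so the order depends on the annotation. Before division by length, the mean counts with Adriamycin were 2634 for Ctsz, 11775 for Ctsl and 7580 for Ctsa. The 10 genes together held 0.562% of the summed mean counts with Adriamycin and 0.275% with vehicle, of which Ctsd alone made 56.1% and 42.2%. Summed over the members, the implied count was 143751 in knockout MEFs and 93817 in wild-type MEFs with Adriamycin (1.53-fold, and 1.66-fold without Ctsd). With vehicle the sum was 79994 in knockout MEFs and 36507 in wild-type MEFs (2.19-fold, and 1.92-fold without Ctsd).

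**Figure D2:**
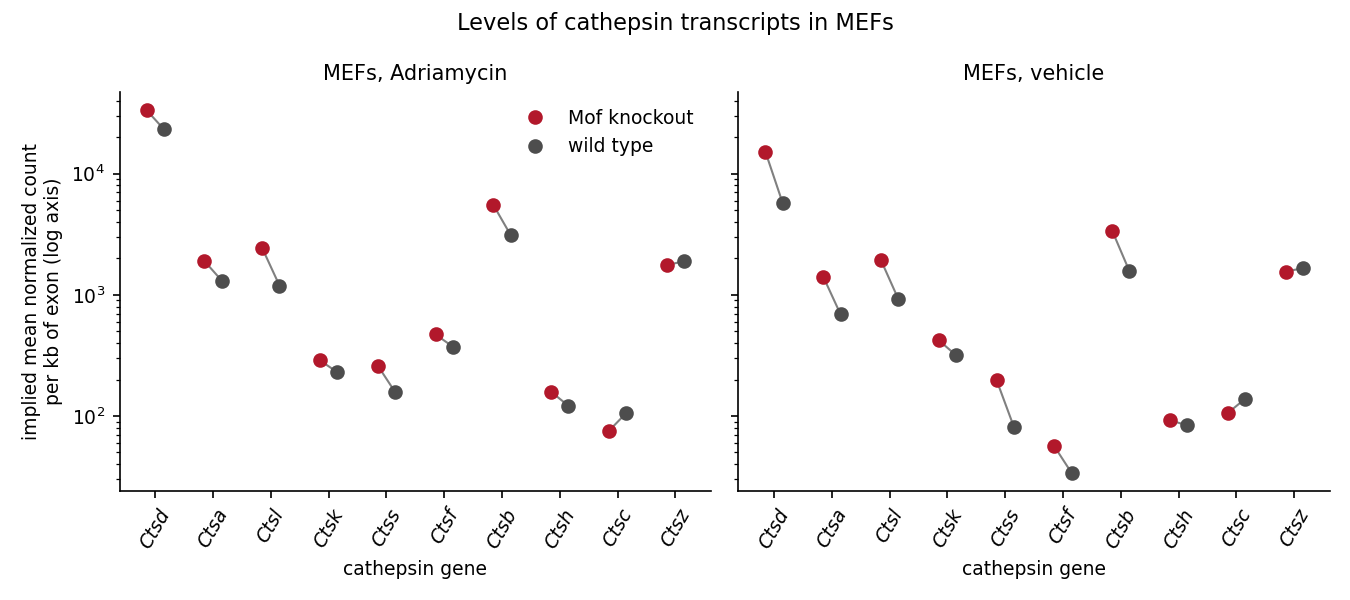
Implied mean normalized count per kb of exon (log y axis) of each cathepsin gene (x axis) in Mof knockout and wild-type MEFs, with Adriamycin on the left and vehicle on the right; a line joins the groups of 1 gene. Ctsd is highest in both panels, and Ctsf stands at 471 in knockout and 373 in wild-type MEFs with Adriamycin but at 56.2 and 33.8 with vehicle.

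Whether the effect of Mof loss depended on the drug was asked in MEFs with a z test, the difference between the fold changes of these tables, which share no sample, divided by its combined SE and adjusted over 13973 genes. The effect of Mof loss was smaller with Adriamycin for cathepsin D and cathepsin A. Taken as Adriamycin minus vehicle, the difference in log2 fold change was -0.89 ± 0.12 (SE, adjusted p 5.99e-10) for Ctsd and -0.50 ± 0.13 (adjusted p 0.00498) for Ctsa, from the authors' deposited tables. These were the 2 of 10 members past the threshold, both negative, where 7.09% of all genes compared passed it and 3.61% passed it with a negative and 3.49% with a positive difference. The difference was below 0 for 9 of 10 members, and its median was -0.19 for the members and -0.023 for all genes. The share of all genes below 0 was not computed. Called genes split about evenly by sign, so the signed median of all genes does not show whether effects shrank in general. Median fold changes were also lower with Adriamycin than vehicle for other lysosomal hydrolases (0.17 and 0.34) and membrane genes (0.48 and 0.71), but not for sorting genes (0.12 and 0.11). For Ctsl the difference was -0.035 ± 0.13 with a 95% interval of -0.28 to 0.21. Ctsb (-0.29 ± 0.15, adjusted p 0.258), Ctsf (-0.40 ± 0.20, 0.246) and Ctss (-0.56 ± 0.42, 0.511) did not pass. Ctsh, the 1 member with a difference above 0, was at 0.24 ± 0.22 (adjusted p 0.602), so its call in one MEF table and not in the other is not shown to be a difference; the same holds for Ctss. For Ctsc, Ctsk and Ctsz the differences were -0.10 ± 0.22, -0.089 ± 0.45 and -0.016 ± 0.16.

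In podocytes given Adriamycin, the direction was the opposite: every member with a value was lower in knockdown than in scramble cells. Ctsz, Ctsa, Ctsf, Ctsd, Ctsb and Ctsl fell, 6 of 10 members, with 0 higher. The share called was 55.7% of the 17184 genes tested under Adriamycin, 27.8% higher and 27.9% lower. Because the deposited table lists called genes alone, the median log2 fold change of the 6 listed members, -1.08, stands beside a median of -0.12 over the 9578 listed genes.

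Cathepsin A had the smallest p of the family in podocytes, at rank 41 of all tested genes. Its implied mean count was 2338 in knockdown and 6246 in scramble podocytes, a log2 fold change of -1.42 ± 0.048 (SE, adjusted p 3.66e-191) in the authors' deposited table. The neighbour Neurl2 stood at -1.05 ± 0.17 there, and Pltp had no row. Ctsd again had the highest count per kb of exon, with counts of 21854 in knockdown and 41537 in scramble podocytes and a log2 fold change of -0.93 ± 0.042 (adjusted p 1.79e-104) in the authors' deposited table. Ctsz, not called in MEFs, had the lowest fold change of the 6: its implied mean count was 273 in knockdown and 753 in scramble podocytes, and its log2 fold change in the authors' deposited table was -1.47 ± 0.092 (adjusted p 6.45e-56), which leaves 36.2% of the scramble level. Its neighbour Nelfcd stood at 0.87 ± 0.084 in that table.

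The cysteine endopeptidases with a value fell as well. Ctsf had an implied mean count of 442 in knockdown and 1045 in scramble podocytes and a log2 fold change of -1.24 ± 0.086 (SE, adjusted p 1.61e-46) in the authors' deposited table. For Ctsb the counts were 3544 in knockdown and 6034 in scramble podocytes, with -0.77 ± 0.046 (adjusted p 7.22e-60) in the authors' deposited table; Fdft1 on the other strand was at 1.002 ± 0.11. Cathepsin L, the member with a known role in podocyte injury, had the smallest change of the 6, with 1047 in knockdown and 1604 in scramble podocytes and -0.62 ± 0.064 (adjusted p 5.88e-21) in the authors' deposited table. Summed over these 6 genes, the implied count was 29497 in knockdown and 57219 in scramble podocytes (0.516-fold, and 0.487-fold without Ctsd). Per kb of exon the mean count ran from 13482 for Ctsd to 148 for Ctsf. Ctsc, Ctsh, Ctsk and Ctss had no row. Each of them either had an adjusted p of 0.05 or above or was not tested, and which of these holds is unknown.

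In podocytes with vehicle, 0 of the 10 members had a row, in a table where 14.3% of 13876 tested genes were called by the authors with DESeq2, 8.70% higher and 5.64% lower. The count at an unadjusted p below 0.05 is unknown, since rows stop at a p of 0.00717, or a Wald statistic of 2.69 in absolute value. With a floor of 500 on the mean count, 1279 genes of this table remain, among which the smallest absolute log2 fold change was 0.20 and the median SE 0.111. The members' own fold changes and errors under vehicle are not known, so whether Adriamycin changed the effect of the knockdown on them could not be tested. Ctso, a cathepsin gene outside the 10, did have a row, at 0.37 ± 0.13 (SE) in the authors' deposited table.

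The effects in MEFs and podocytes under Adriamycin were compared by the same z test, over the 8842 genes with an adjusted p in both tables. All 6 members that could be compared differed, and all 6 had the higher fold change in MEFs, in a comparison where 79.3% of genes passed and 38.8% passed in that direction, 40.5% in the other. The log2 fold change in MEFs less that in podocytes was 1.95 ± 0.094 (SE, adjusted p 1.32e-93) for Ctsa, 1.65 ± 0.10 (1.40e-55) for Ctsl, 1.60 ± 0.11 (4.14e-48) for Ctsb and 1.58 ± 0.13 (5.33e-34) for Ctsf, from the authors' deposited tables. It was 1.45 ± 0.080 (5.69e-72) for Ctsd and 1.36 ± 0.16 (4.69e-16) for Ctsz. The median difference was 1.59 over the 6 members and -0.042 over all genes compared. Ctsa, Ctsb, Ctsd, Ctsf and Ctsl passed the threshold in both tables with opposite signs, and Ctsz passed in podocytes alone. The share of all genes called in both with opposite signs was not computed, so whether this is unusual is unknown. Cell type cannot be told apart here from knockout against knockdown or from the drug dose, and the podocyte values are those of called genes.

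**Figure D3:**
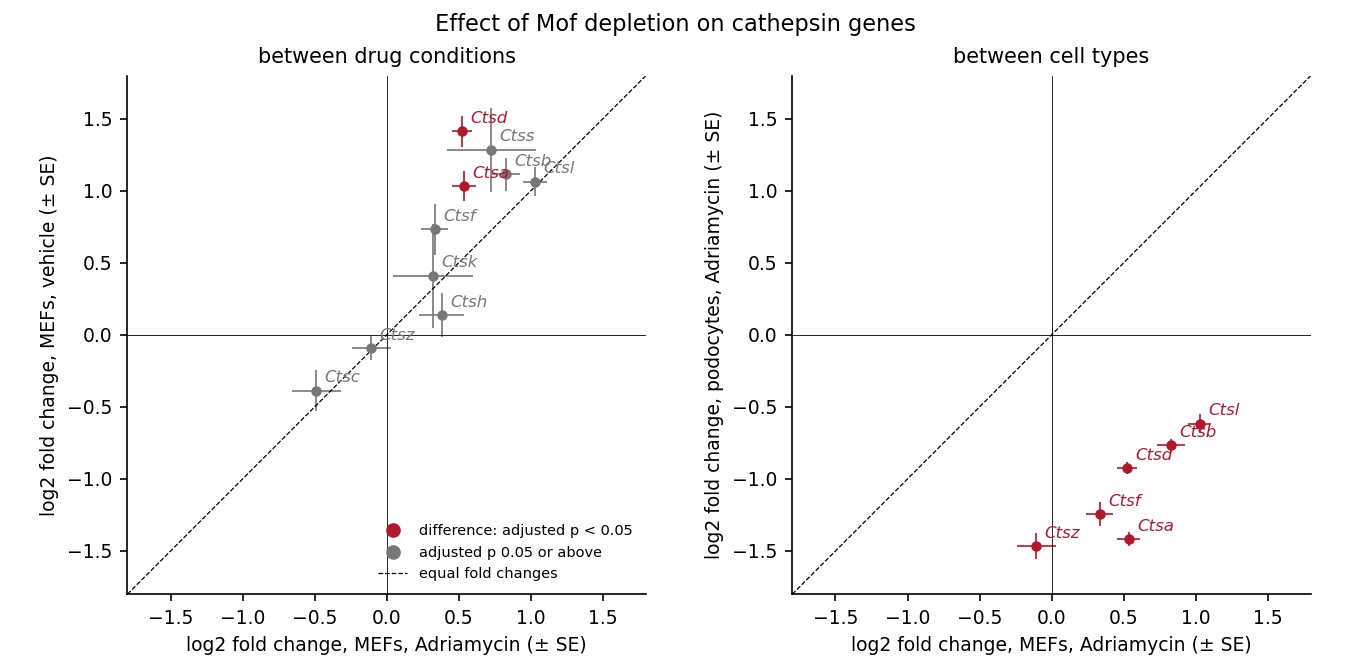
Log2 fold change of each cathepsin gene (Mof-depleted over control, ± SE) in MEFs with Adriamycin on both x axes, against MEFs with vehicle (left y axis) and podocytes with Adriamycin (right y axis); the dashed line marks equal fold changes and red marks a difference with an adjusted p below 0.05. On the left, Ctsd and Ctsa lie above the line. On the right all 6 genes lie below it, 5 of them in the quadrant of opposite signs. The share of all genes in that quadrant was not computed.

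Of the natural inhibitors, those that passed the threshold were higher in MEFs and lower in podocytes. In MEFs, 3 of 6 tested inhibitor genes rose with Adriamycin and 4 of 6 with vehicle, with 0 lower in either. The shares of all tested genes were 16.6% higher and 16.1% lower with Adriamycin, and 17.8% and 19.6% with vehicle. Stefin B (Cstb), a cytosolic inhibitor of cysteine cathepsins, was at 0.44 ± 0.17 (SE) with Adriamycin and 0.54 ± 0.10 with vehicle, and cystatin E/M (Cst6) at 0.60 ± 0.18 and 1.78 ± 0.44, in the authors' deposited tables. Serpina3n rose as well, by 0.85 ± 0.32 with Adriamycin and 1.62 ± 0.41 with vehicle, and Serpinb6a by 0.25 ± 0.10 with vehicle, in the authors' deposited tables. With vehicle the mean counts of Cst6 and Serpina3n were low, at 23.7 and 27.9. Cystatin C (Cst3), the main secreted inhibitor, was at -0.11 ± 0.16 with Adriamycin and 0.095 ± 0.080 with vehicle and passed in neither. In podocytes with Adriamycin, 5 of the 10 inhibitor genes fell and 0 rose, where 27.9% of all tested genes fell and 27.8% rose. Cstb was at -0.83 ± 0.044, Cst3 at -0.60 ± 0.052 and Serpinb6a at -0.74 ± 0.052 in the authors' deposited table. Cst6 (-1.21 ± 0.53) and Serpina3g (-1.44 ± 0.60) fell there at mean counts of only 8.96 and 6.12. With vehicle Serpinb6a fell, at -0.45 ± 0.13 in the authors' deposited table.

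Genes that sort, activate or partner cathepsins rose or did not pass in MEFs and went both ways in podocytes. In MEFs 4 of 12 rose with Adriamycin and 4 of 12 with vehicle, with 0 lower. Of all tested genes, 16.6% rose and 16.1% fell with Adriamycin, and 17.8% rose and 19.6% fell with vehicle. Neuraminidase 1 (Neu1), a partner of cathepsin A, stood at 1.10 ± 0.11 (SE) with Adriamycin and 0.95 ± 0.15 with vehicle in the authors' deposited tables. Scarb2, the receptor that carries glucocerebrosidase to lysosomes, was at 0.67 ± 0.090 with Adriamycin and 0.78 ± 0.13 with vehicle, and prosaposin (Psap) at 0.52 ± 0.11 and 0.77 ± 0.078, in the authors' deposited tables. The mannose 6-phosphate receptor gene Igf2r rose with Adriamycin (0.55 ± 0.17) and beta-galactosidase (Glb1) with vehicle (0.57 ± 0.095) in the authors' deposited tables. Igf2r had a similar value with vehicle (0.57 ± 0.26) that did not pass, and Glb1 with Adriamycin (0.19 ± 0.092) did not pass. In podocytes with Adriamycin, 5 of 12 rose and 6 fell, where 27.8% of all tested genes rose and 27.9% fell. Those that rose were the mannose 6-phosphate receptor gene M6pr (0.44 ± 0.045), the phosphotransferase gene Gnptab (0.43 ± 0.14), the sorting receptor Sort1 (0.52 ± 0.073), Neu1 (0.36 ± 0.087) and Glb1 (0.41 ± 0.13) in the authors' deposited table. Those that fell were Scarb2 (-1.16 ± 0.064), the sulfatase Galns (-0.82 ± 0.12), the phosphotransferase subunit Gnptg (-0.75 ± 0.074), the asparaginyl protease legumain (Lgmn, -0.58 ± 0.054), the uncovering enzyme Nagpa (-0.35 ± 0.12) and Psap (-0.30 ± 0.044) in the authors' deposited table. With vehicle, 3 rose and 3 fell in podocytes, where 8.70% of all tested genes rose and 5.64% fell. Psap (0.36 ± 0.097), Lgmn (0.28 ± 0.10) and Galns (0.47 ± 0.13) were higher in the authors' deposited table. Scarb2 (-0.62 ± 0.18), Gnptab (-0.42 ± 0.12) and M6pr (-0.22 ± 0.081) were lower in it.

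Of TFEB and its relatives, Tfe3 rose in MEFs with Adriamycin (0.31 ± 0.12) and vehicle (0.40 ± 0.082) in the authors' deposited tables, and Tfec rose with vehicle (1.36 ± 0.51) at a mean count of 13.6. Tfeb did not pass in MEFs, at -0.10 ± 0.22 with Adriamycin and -0.33 ± 0.23 with vehicle in the authors' deposited tables. In podocytes with Adriamycin Tfeb fell (-1.39 ± 0.13), Tfe3 fell (-0.15 ± 0.068) and Mitf rose (0.49 ± 0.17) in the authors' deposited table; with vehicle none of the 4 had a row. Genes of the podocyte proteins that cathepsin L is known to cut went both ways: under Adriamycin synaptopodin (Synpo, 1.10 ± 0.18) and Cd2ap (0.98 ± 0.049) rose and dynamin 2 (Dnm2, -0.72 ± 0.052) fell in the authors' deposited table. With vehicle Synpo rose (0.62 ± 0.17) in the authors' deposited table. In MEFs Dnm2 was at 0.31 ± 0.10 with Adriamycin and 0.32 ± 0.079 with vehicle, Synpo at -0.41 ± 0.17 and -0.22 ± 0.14, and Dnm1 at 0.50 ± 0.22 and 0.62 ± 0.13 in the authors' deposited tables; Dnm2 passed in both, Synpo with Adriamycin and Dnm1 with vehicle. Among 14 other cathepsin genes, 2 (Ctso and Ctsw) were tested in MEFs and neither passed. In podocytes with Adriamycin Ctso rose (1.24 ± 0.13), against the direction of the 6 members, while Ctsw (-1.92 ± 0.56) and Ctsq (-1.40 ± 0.41) fell at mean counts of 8.22 and 19.8 in the authors' deposited table.

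Other lysosomal genes give the setting of these counts. In MEFs, 16.6% of all tested genes rose and 16.1% fell with Adriamycin, and 17.8% rose and 19.6% fell with vehicle. With Adriamycin 15 of 40 other hydrolase genes rose and 8 fell (median 0.17), and 25 rose and 0 fell of 31 genes of the lysosomal membrane and the proton pump (median 0.48). With vehicle 24 rose and 5 fell of 40 hydrolases (median 0.34), and 27 rose and 0 fell of 31 membrane genes (median 0.71). Examples are Npc2, a lysosomal cholesterol carrier (0.88 ± 0.083 with Adriamycin, 1.12 ± 0.073 with vehicle), which rose, and the lysosomal acid phosphatase Acp2 (-0.74 ± 0.11 and -0.53 ± 0.10), which fell, in the authors' deposited tables. In podocytes with Adriamycin the hydrolases went both ways, with 14 higher and 19 lower of 40, while membrane genes had 1 higher and 21 lower of 31. Of all genes tested in podocytes with Adriamycin, 27.8% were higher and 27.9% lower. The hydrolase Scpep1, a serine carboxypeptidase related to cathepsin A, rose there (1.08 ± 0.069), whereas Npc2 fell (-1.22 ± 0.051), in the authors' deposited table. Of the membrane genes the 1 that rose was Atp6ap2, an accessory subunit of the proton pump, at 0.40 ± 0.077 in the authors' deposited table. Lists were not tested against each other, and all were chosen with earlier results of these data known.

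**Figure D4:**
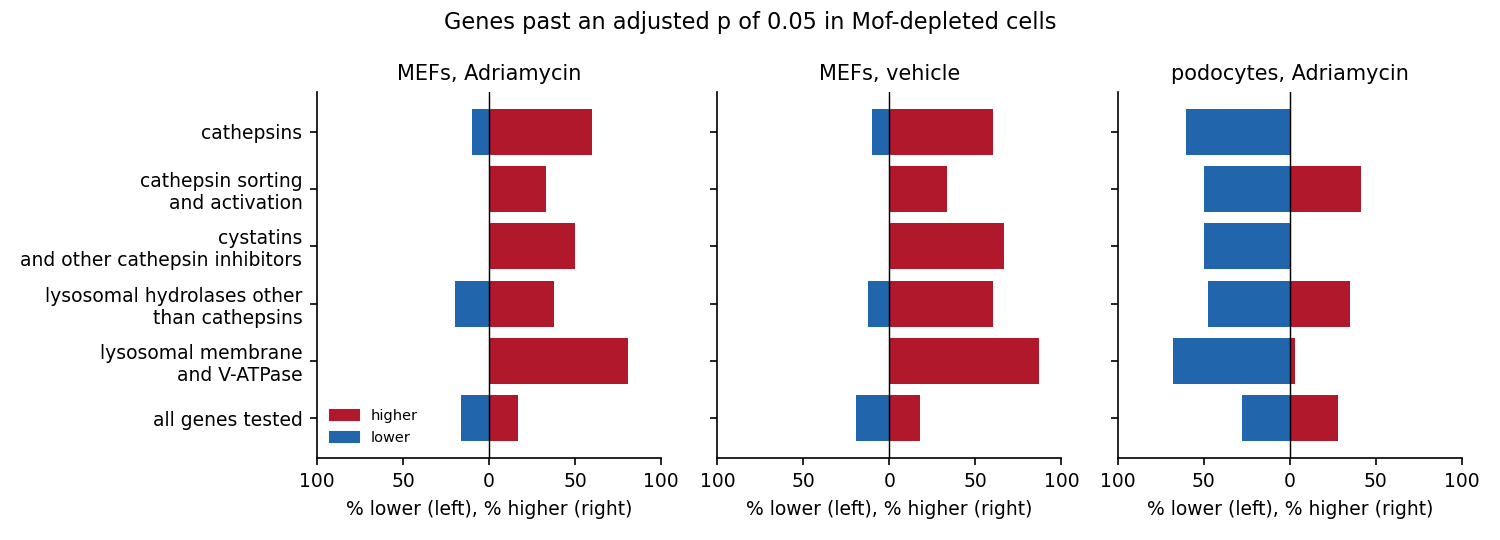
Share of genes higher (right, red) and lower (left, blue) at an adjusted p below 0.05 in Mof-depleted cells, for the cathepsins, 4 related lists and all tested genes (y axis), in MEFs with Adriamycin, MEFs with vehicle and podocytes with Adriamycin. For the lists, shares are of tested members in MEFs and of the whole list in podocytes. The bar of all tested genes is a share of tested genes in every panel. The cathepsin bars point right in both MEF panels (6 of 10 higher) and left in podocytes (6 of 10 lower).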

How the data were processed

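RNA of 24 samples was extracted with RNeasy and made into poly(A) Illumina libraries, per the labels' protocols. DESeq2 1.4.1, featureCounts 1.4.5-p1, TopHat2 2.0.13 and the GRCm38 build are named in the submitters' processing notes; their settings are not given in the sources used here. In each of the 4 tables the authors deposited, the signal is a mean count over the samples of a table after division by size factors. The log2 fold change and its SE are also as deposited by the authors, the score is the authors' Wald statistic (checked to equal the fold change over its SE to within 1.42e-13), and each p-value and adjusted p-value was deposited by the authors as well. Shrinkage of fold changes is not stated, but MEF genes with a mean count below 1 had a median SE of 0.335 with Adriamycin and 0.434 with vehicle, far below what so few reads allow without it, so fold changes of low genes are understated.

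Computed here, with Python 3.11.15, pandas 2.3.3, numpy 2.4.6 and scipy 1.17.1: counts of members called at an adjusted p below 0.05, group means implied by a mean count and a fold change with 3 samples a group, and z tests of differences between tables (two-sided normal p, Benjamini-Hochberg). The z test was also run on simulated fold changes drawn with the deposited SEs. That run checks the code, but not the shrinkage, the independence of the tables or the listing of called podocyte genes alone. Adjusted and raw p together gave the number of genes tested in podocytes. Exon lengths, each the union of all exons annotated for a gene, and positions come from GENCODE M21. Depth per library is unknown, so the SE is the precision of each value. The members and all gene lists were chosen with earlier results of these data known. All 10 members and Kat8 were named, with every called inhibitor, sorting, TFEB-family and other cathepsin gene, and up to 4 genes of each other list, of which some are not reported here. A search for genes with the most similar pattern over all 4 tables named none, since no member is in all 4. Alternatives were other thresholds on the adjusted p, a minimum mean count of 100, centring on the median, no filter on low counts, Bonferroni adjustment of the podocyte tables and, added after seeing the data, taking back the shrinkage.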

Additional observations from a re-analysis of the deposited data

Results flagged for a closer look

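The effect of Mof loss differed between groups for these genes by the z test of the difference, each from the authors' deposited tables. In MEFs, the difference taken as Adriamycin minus vehicle was -0.89 ± 0.12 (SE) for Ctsd and -0.50 ± 0.13 for Ctsa, both negative. In that comparison 7.09% of all genes differed, 3.61% with a negative difference. Under Adriamycin, the change in MEFs less that in podocytes was 1.95 ± 0.094 for Ctsa, 1.65 ± 0.10 for Ctsl, 1.60 ± 0.11 for Ctsb, 1.58 ± 0.13 for Ctsf, 1.45 ± 0.080 for Ctsd and 1.36 ± 0.16 for Ctsz. Of the 8842 genes compared between cell types, 79.3% differed, 38.8% in this direction. Podocyte values exist only for genes called there. Cell type cannot be told apart from knockout against knockdown or from the drug dose. Ctsa and Ctsd are the members in both comparisons, which share the MEF samples given Adriamycin. With no value per sample, no single sample could be examined for standing apart.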

How the results depend on the processing

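Every count of called members stayed within 1.5 times its value under each alternative that could be run. In MEFs it ran from 5 to 8 of 10 with Adriamycin and from 6 to 7 with vehicle. In podocytes with Adriamycin it was 6 throughout, and 0 members had a row with vehicle. Neither podocyte count tests stability, since only called genes are listed. The 6 listed members had an adjusted p of 5.88e-21 or below by the authors' Wald test, and mean counts of 513 or above. The alternatives run on them could therefore not have changed the count. The counts of differing effects were 2 between drug conditions in MEFs and 6 between cell types under Adriamycin at thresholds of 0.01 and 0.1, with a minimum mean count of 100 and with centring; Bonferroni adjustment was run on the podocyte tables only, not on these differences. No value of a member changed sign: of 192 single values, 185 kept their call, 4 lost it and 3 gained it. Ctsc lost its call in both MEF tables at a threshold of 0.01, and Ctsh with Adriamycin lost it at 0.01 and with no filter on low counts. Ctss with Adriamycin gained a call at 0.1, with a minimum mean count of 100 (adjusted p 0.0492) and with centring on the median of tested genes (0.0496). Taking back the shrinkage, an alternative chosen after seeing the data, gave differences between drug conditions of -0.91 for Ctsd and -0.51 for Ctsa. Centring could not be run on the calls in podocytes, whose tables hold called genes alone, and no alternative gave a value where no member was in both tables. No paired analysis was possible because the tables hold no value per sample; for the same reason no sample could be left out.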

Other observations

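Levels of the cathepsins also differed between the MEF tables of the 2 drug conditions, whose common scale is unknown, so these ratios were not tested. As a ratio of implied counts with Adriamycin over vehicle, computed from the authors' deposited tables, Ctsf stood highest, at 8.38 in knockout and 11.0 in wild-type MEFs. Ctsd followed at 2.20 in knockout and 4.07 in wild-type MEFs. For each member, the gap between its knockout and wild-type ratios restates the difference in fold change between drug conditions. It comes from the same deposited values and is not a separate observation. For Ctsb the ratios were 1.63 in knockout and 1.99 in wild-type MEFs, and for Ctsa 1.34 and 1.89. Ctsl changed less, at 1.26 in knockout and 1.29 in wild-type MEFs. Ctsc and Ctsk were below 1 in both, at 0.713 and 0.682 in knockout and 0.765 and 0.725 in wild-type MEFs.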
